A study of Mus musculus with 12 samples.

Results

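The mouse mitochondrial genome encodes 13 protein-coding genes, 2 ribosomal RNAs (rRNAs) and 22 transfer RNAs (tRNAs), and all 37 were found in the sperm count table as entries whose symbol starts with mt-, among 51826 entries. The testis table of the same series held 0 such entries among 23502, so only sperm libraries were compared. Mature sperm had been taken from the cauda epididymis of WT mice and of Xap5l KO mice at postnatal day 56. The knockout was a global CRISPR/Cas9 deletion of Xap5l (Fam50b) on a C57BL/6J background, and the libraries were made from poly(A) RNA. Each genotype had 3 libraries, described as biological replicates without naming animals, so the p-values below measure the spread between these samples.

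Mitochondrial genes are transcribed as long precursors from both strands, and the tRNAs that lie between the larger genes are cut out to release the mRNAs and rRNAs. The mRNAs encode core subunits of respiratory complexes I, III, IV and V. The rRNAs build the mitochondrial ribosome, which translates the mRNAs. In sperm, mitochondria are wrapped around the flagellum in the midpiece.

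Fam50b, the deleted gene (GRCm38 chr13:34734850-34747623), was counted 574, 440 and 419 times in WT and 18, 23 and 8 times in Xap5l KO sperm. The counts followed the labels without overlap (log2 fold change −5.15, SE 0.466, adjusted p = 0.0118, edgeR quasi-likelihood with Benjamini-Hochberg adjustment). Total counts were 40198158, 38881197 and 41716085 in WT and 43373223, 49355735 and 52308452 in Xap5l KO sperm.

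Mitochondrially encoded RNA took a large share of the sperm counts in both genotypes. The 37 genes held 20.2%, 24.0% and 19.3% of all counts in WT sperm, against 27.4%, 18.6% and 10.5% in Xap5l KO sperm. The highest and the lowest share both belonged to Xap5l KO libraries. The means were 21.2% ± 2.51 (SD, n = 3) in WT and 18.9% ± 8.47 (SD, n = 3) in Xap5l KO, a difference within the spread between replicates (exact two-sided permutation test, p = 0.7, 0.889 after Benjamini-Hochberg adjustment over 10 shares and ratios). With 3 libraries against 3 this test cannot go below 0.1. The difference of −2.31 percentage points became 1.87 without Xap5l KO replicate 3, −6.60 without Xap5l KO replicate 1 and −0.887 without WT replicate 2. At these depths the 95% Wilson intervals of the shares of the 37 genes were at most 0.0269 percentage points wide, which covers counting error only.

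The share of ribosomal RNA was lower in each Xap5l KO library, a difference that did not pass its test. The 2 rRNAs held 1.29%, 1.21% and 1.06% of the counts in WT and 0.635%, 0.149% and 0.500% in Xap5l KO libraries. All 3 Xap5l KO libraries were below all 3 WT libraries, with means of 1.19% ± 0.118 and 0.428% ± 0.251 (SD, n = 3, exact two-sided permutation test, p = 0.1, the smallest it can give, adjusted p = 0.25). Of all genes tested, 19.2% were separated in this direction, each taken singly and after scaling between libraries. The rRNA share is an unscaled sum of 2 genes, so the 2 measures are not the same. The protein-coding genes held 18.9%, 22.8% and 18.2% in WT and 26.8%, 18.5% and 9.98% in Xap5l KO libraries, and the groups overlapped (exact two-sided permutation test, p = 0.8, adjusted p = 0.889). Their difference of −1.55 percentage points became 2.66 without Xap5l KO replicate 3. The tRNAs held 0.0197% ± 0.00332 in WT and 0.0198% ± 0.00503 in Xap5l KO (SD, n = 3, exact permutation p = 1.0), also with overlap.

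**Figure D1:**
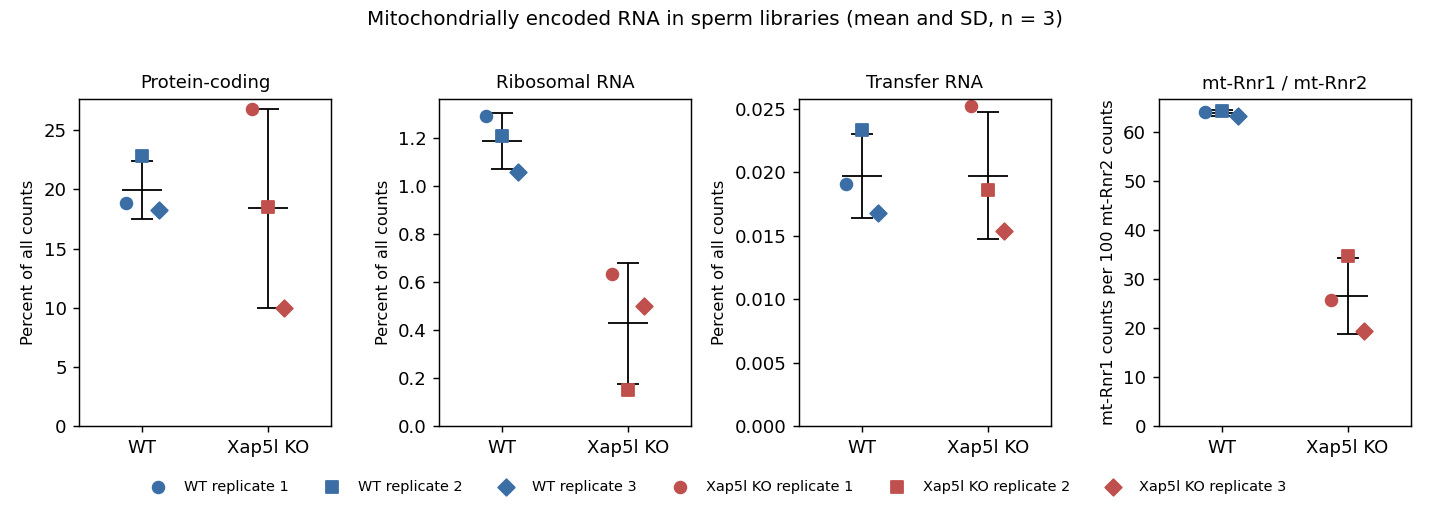
Percent of all counts of a library on mitochondrial protein-coding, ribosomal RNA and transfer RNA genes, and mt-Rnr1 counts per 100 mt-Rnr2 counts (y axes), in WT and Xap5l KO sperm (x axes). Points are libraries and bars the mean and SD of 3 libraries. The ribosomal share of the Xap5l KO libraries, 0.149% to 0.635%, lay below the WT libraries, while the protein-coding and tRNA shares overlapped.

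Of the mitochondrial genes 1 passed the test across all genes, mt-Rnr1, the RNA of the small mitochondrial ribosomal subunit (12S rRNA; GRCm38 chrM:70-1024, plus strand). It was counted 202821, 184049 and 171240 times in WT and 56425, 18931 and 42350 times in Xap5l KO sperm. Every Xap5l KO library was below every WT library, and Xap5l KO replicate 2 was the lowest. In CPM (counts scaled to a common library total, adjusted by TMM), mt-Rnr1 stood at 4741 ± 1269 in WT and 893 ± 651 in Xap5l KO (SD, n = 3), a log2 fold change of −2.41 (SE 0.545, adjusted p = 0.0259, edgeR quasi-likelihood with Benjamini-Hochberg adjustment). Calls required this adjusted p to be under 0.05 and the fold change above 2.

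Of 33 mitochondrial genes that passed the filter on low counts, 1 was called lower, where the background over all 20945 genes tested was 1.27% (267 genes), and 0 were called higher, where it was 7.59% (1589 genes). DESeq2 also gave 1 lower and 0 higher, and at an unadjusted p under 0.05 with the same fold change edgeR gave 1 and 0. The mt-Rnr1 call depended on single libraries. Leaving out WT replicate 2 ended it (adjusted p = 0.0879, edgeR quasi-likelihood with Benjamini-Hochberg adjustment), as did leaving out WT replicate 3 (0.09) or Xap5l KO replicate 2 (0.0775), and in these 3 fits the calls over all genes went down to 1 higher and 1 or 2 lower. Without Xap5l KO replicate 1 the calls over all genes were 483 higher and 71 lower, while leaving out Xap5l KO replicate 3 gave 2402 higher and 443 lower. The log2 fold change without any 1 library stayed between −3.15 and −2.02. Taken relative to mitochondrial mRNA instead of all counts, it was −2.22 and not called (adjusted p = 0.155, edgeR quasi-likelihood with Benjamini-Hochberg adjustment).

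mt-Rnr2, the RNA of the large subunit (16S rRNA; chrM:1094-2675, plus strand), lies next to mt-Rnr1 with only the tRNA gene mt-Tv between them. Its counts were 316675, 285913 and 270930 in WT and 218975, 54539 and 219198 in Xap5l KO libraries. The raw counts were lower in every Xap5l KO library, but after TMM scaling the groups overlapped, at 7417 ± 1956 and 3666 ± 2635 CPM (SD, n = 3). The log2 fold change of −1.02 (SE 0.585) did not pass the test (adjusted p = 0.244, edgeR quasi-likelihood with Benjamini-Hochberg adjustment). With a library left out the log2 fold change of mt-Rnr2 ran from −1.65 (without Xap5l KO replicate 1) to −0.57 (without Xap5l KO replicate 2) and was not called.

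The ratio between the 2 rRNAs was close among WT libraries and lower in each Xap5l KO library. There were 64.0, 64.4 and 63.2 mt-Rnr1 counts per 100 mt-Rnr2 counts in WT and 25.8, 34.7 and 19.3 in Xap5l KO. The groups lay far apart against their spread (63.9 ± 0.603 against 26.6 ± 7.73, SD, n = 3, exact two-sided permutation test, p = 0.1, adjusted p = 0.25). This ratio does not depend on nuclear counts or on scaling.

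Relative to the mitochondrial mRNAs, the sum of the 2 rRNAs was also lower in each Xap5l KO library. There were 6.85, 5.30 and 5.81 ribosomal counts per 100 protein-coding counts in WT and 2.37, 0.806 and 5.01 in Xap5l KO libraries. Xap5l KO replicate 3 came close to the WT range without reaching it (exact two-sided permutation test, p = 0.1, adjusted p = 0.25). For mt-Rnr1 alone the ratio was 2.33 ± 0.307 in WT and 0.502 ± 0.302 in Xap5l KO (SD, n = 3, exact permutation p = 0.1, adjusted 0.25). For mt-Rnr2 alone the groups overlapped, at 3.66 ± 0.482 and 2.23 ± 1.82 (SD, n = 3, exact permutation p = 0.4, adjusted 0.8).

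**Figure D2:**
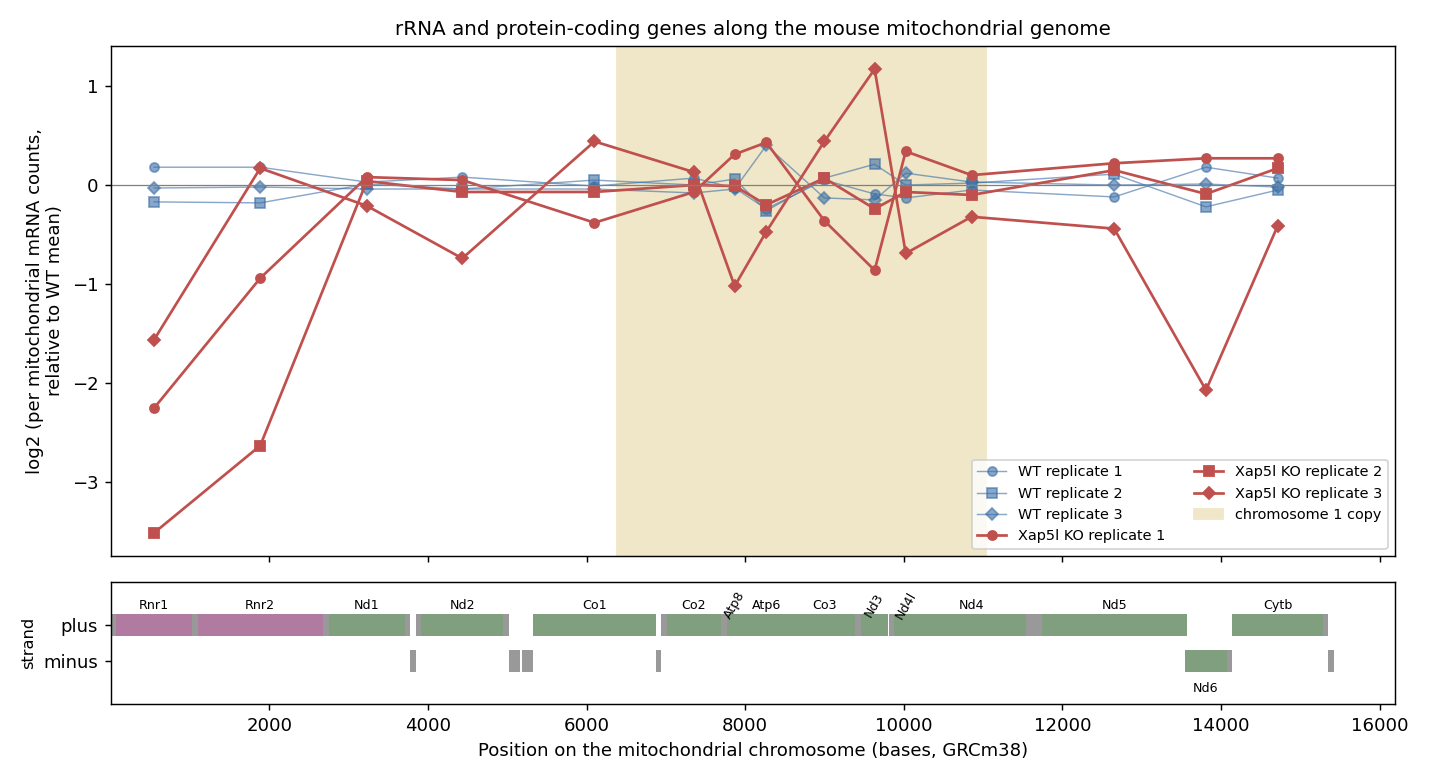
Counts of each rRNA and protein-coding gene per count of mitochondrial mRNA, as log2 relative to the WT mean (y axis), at the middle of the gene on the mitochondrial chromosome in bases of GRCm38 (x axis), with chromosome 1 copies added to their genes. Lines join the genes of a library, the shaded span has a near-identical copy on chromosome 1, and the lower panel shows genes by strand (purple rRNA, green protein-coding, grey tRNA). mt-Rnr1 was at −2.25, −3.51 and −1.56 in the Xap5l KO libraries, and replicate 3 also departed at mt-Nd3 (1.17) and mt-Nd6 (−2.07).

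The 13 protein-coding genes gave log2 fold changes between −0.23 and 0.57, with standard errors of 0.296 to 0.929, and 0 were called by edgeR or DESeq2, also at an unadjusted p under 0.05. In TMM-scaled counts 5 leaned higher and 8 lower. For all 13 the direction turned under at least 1 of the alternatives run (another scaling, the replicate block or a library left out), so no direction is read from them. With standard errors of this size, small differences could not be detected.

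Complex I, the NADH dehydrogenase, has 7 mitochondrially encoded subunits. Of these mt-Nd1 had the most counts per kilobase, at 823325, 940664 and 774040 (WT) and 1283126, 1005833 and 485217 (Xap5l KO). The groups overlapped, with Xap5l KO replicate 1 highest and replicate 3 lowest (log2 fold change −0.02, SE 0.558, adjusted p = 0.983, edgeR quasi-likelihood with Benjamini-Hochberg adjustment). Without Xap5l KO replicate 3 the log2 fold change of mt-Nd1 was 0.44, also not called. mt-Nd3 had the fewest, at 26416, 37708 and 24885 (WT) and 22998, 28408 and 44191 (Xap5l KO). Here Xap5l KO replicate 3 had the highest count and replicate 1 the lowest (log2 fold change −0.21, SE 0.296, adjusted p = 0.633, same edgeR test with Benjamini-Hochberg adjustment).

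mt-Cytb encodes cytochrome b, the mitochondrially encoded subunit of complex III. Its counts were 1393750, 1482012 and 1280901 (WT) and 2394659, 1805828 and 696873 (Xap5l KO). The Xap5l KO libraries lay on both sides of the WT libraries (log2 fold change 0.10, SE 0.623, adjusted p = 0.92, edgeR quasi-likelihood with Benjamini-Hochberg adjustment).

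Complex IV, cytochrome c oxidase, has 3 such subunits. mt-Co1, its catalytic subunit, was the highest per kilobase by its own counts, at 2025882, 2554504 and 2013058 (WT) and 2288217, 2289094 and 2024423 (Xap5l KO). In counts the Xap5l KO libraries lay within the WT range, and scaled they reached beyond it on both sides (log2 fold change −0.23, SE 0.490, adjusted p = 0.764, edgeR quasi-likelihood with Benjamini-Hochberg adjustment). mt-Co3 was the lowest, at 495825, 580295 and 428188 (WT) and 560179, 608966 and 452999 (Xap5l KO), with overlap (log2 fold change −0.13, SE 0.429, adjusted p = 0.848, same edgeR test with Benjamini-Hochberg adjustment). In CPM the SD between Xap5l KO libraries was 16100 around 47140 for mt-Co1, against 28540 around 37650 for mt-Cytb.

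The genes of complex V, the ATP synthase, were counted unevenly. mt-Atp8 counts were 117325, 145029 and 114723 (WT) and 222657, 143259 and 41020 (Xap5l KO), with Xap5l KO libraries on both sides of WT (log2 fold change 0.02, SE 0.631, adjusted p = 0.982, edgeR quasi-likelihood with Benjamini-Hochberg adjustment). mt-Atp6 counts were 117299, 128855 and 475738 (WT) and 742641, 145677 and 68676 (Xap5l KO). WT replicate 3 and Xap5l KO replicate 1 stood far above the other 4 libraries, across genotypes (log2 fold change 0.57, SE 0.929, adjusted p = 0.688, same edgeR test with Benjamini-Hochberg adjustment).

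Part of the mitochondrial genome has a near-identical copy on chromosome 1, and its counts bear on these values. Copies were sought among annotated nuclear transcripts, and 15 entries of the table aligned to the mitochondrial genome at 90% identity or more over at least 80% of their length. Of these, 7 lie together at chr1:24611535-24616197 (GRCm38) and match chrM:6390-11042, from the end of mt-Co1 into mt-Nd4. In 5 of the 7 no base differed, and in 2 a single base did. The 8 other copies, at 90.7% to 97.6% identity, had 2 to 8022 counts in any library. Of 13 copies tested 0 were called by edgeR or DESeq2, also at an unadjusted p under 0.05 with the fold change. mt-Rnr1 and mt-Rnr2 had no annotated copy by this rule. Their ratios to the protein-coding genes do depend on the copies, and the difference between genotypes of −3.26 ribosomal counts per 100 protein-coding counts became −2.52 with the copies added to the protein-coding sum.

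The chromosome 1 copies took 6.03%, 7.07% and 5.33% of all counts in WT and 7.87%, 6.04% and 3.36% in Xap5l KO libraries. The copies of mt-Co2, mt-Co3, mt-Nd3 and mt-Nd4l had nearly the same counts as the mitochondrial genes, between 97.8% and 102% of them in every library. For such pairs the reads cannot be assigned to a genome from these counts, and the values of the mitochondrial genes are uncertain to that extent. Added to their genes, the copies brought the mitochondrial share to 26.2%, 31.1% and 24.6% in WT and 35.3%, 24.7% and 13.9% in Xap5l KO. Xap5l KO replicates 1 and 3 were again the highest and the lowest. If a read was counted at both the gene and its copy, values with the copies added count it more than once. This limit applies to every such value given here.

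The copy of mt-Atp6, Gm10925 (chr1:24613974-24614651), followed another pattern. Its counts were 446%, 467% and 106% of those of mt-Atp6 in WT and 106%, 447% and 452% in Xap5l KO sperm. The values formed 2 levels, with WT replicate 3 and Xap5l KO replicate 1 at the lower level. In the other 4 libraries there were 99.98 and 88.8 mt-Atp6 counts per 100 mt-Atp8 counts (WT replicates 1 and 2) and 102 and 167 (Xap5l KO replicates 2 and 3), against 415 in WT replicate 3 and 334 in Xap5l KO replicate 1. With its copy added, mt-Atp6 reached 640385, 730450 and 978585 (WT) and 1529958, 796721 and 379139 (Xap5l KO), with a log2 fold change of 0.16. How reads that fit both places were counted is not given in the sources used here.

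**Figure D3:**
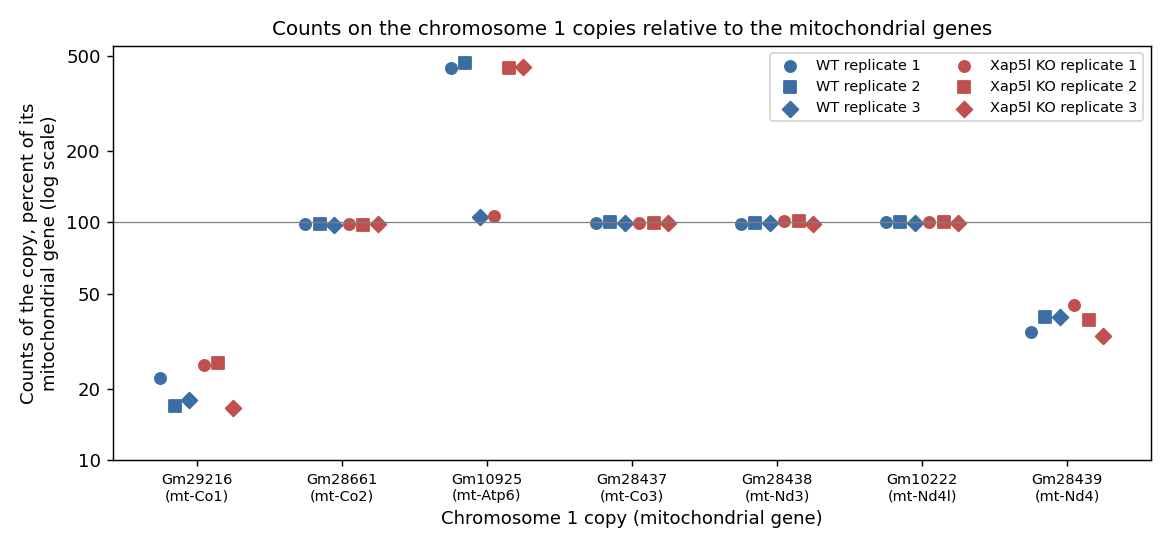
Counts of each chromosome 1 copy as percent of the counts of its mitochondrial gene (y axis, log scale) for the 7 copies in the order of the mitochondrial genome (x axis). Points are libraries, blue for WT and red for Xap5l KO, with 4 copies near 100% in every library. Gm10925 was near 106% in WT replicate 3 and Xap5l KO replicate 1 and between 446% and 467% in the other libraries.

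The reference sequences (GRCm38, strand of the gene, which is plus on chrM) are shown where genes share bases. mt-Atp8 and mt-Atp6 have 43 bases in common at chrM:7927-7969, given in capitals with 20 bases on each side.
mt-Atp8 and mt-Atp6: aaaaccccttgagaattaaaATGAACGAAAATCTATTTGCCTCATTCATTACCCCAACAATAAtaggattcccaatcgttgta
The copy of mt-Nd3, Gm28438, differs from it by T3C, and that of mt-Co1, Gm29216, by A1066T, with positions counted from the first base of the mitochondrial gene. Both differences lie within the first bases of the aligned stretch, and the differing base is in capitals. The copies lie on the minus strand of chromosome 1 and are written along that strand.
mt-Nd3: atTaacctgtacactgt
Gm28438: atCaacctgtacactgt
mt-Co1: ggaAttgttttatccaac
Gm29216: ggaTttgttttatccaac

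Per kilobase, the order of the WT levels depended on the copies. By own counts it ran from mt-Co1 (35460 ± 6158 CPM per kilobase without TMM, SD, n = 3), mt-Cytb (30160 ± 3242) and mt-Co2 (23000 ± 3307) down to mt-Nd3 (2130 ± 576). With the copies added, it ran from mt-Co2 (45600 ± 6589) and mt-Co1 (42130 ± 6722) down to mt-Nd3 (4240 ± 1146). The SDs of mt-Co2 and mt-Co1 overlapped, as did those of mt-Co3 (31880 ± 5986), mt-Cytb (as before) and mt-Atp6 (28480 ± 5580), which followed. These SDs lie between libraries, so they do not measure the order of genes within a library. Within each WT library, mt-Co2 with its copy was above mt-Co1 with its copy per kilobase. Reads counted at both a gene and its copy would raise the values with copies added. For mt-Nd6, mt-Nd2 and mt-Nd5 the SDs also overlapped, at 9669 ± 840, 9036 ± 1049 and 9000 ± 1778. The rRNAs, at 4846 ± 502 for mt-Rnr1 and 4578 ± 441 for mt-Rnr2, had means between that of mt-Nd3 and those of the other protein-coding genes either way, within the spread of mt-Nd3 only with the copies added. In Xap5l KO libraries mt-Rnr1 stood at 871 ± 481 and mt-Rnr2 at 2180 ± 1311 on the same scale.

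mt-Nd6, a complex I subunit singled out after its values were seen, is the only protein-coding gene on the minus strand (chrM:13552-14070). Its counts were 220132, 193238 and 192257 (WT) and 351469, 220960 and 32158 (Xap5l KO). Xap5l KO replicate 3 was far below the other 5 libraries, and its ratio was 0.620 mt-Nd6 counts per 100 counts of the plus-strand mRNAs, against 2.23 to 3.12 in the others (exact two-sided permutation test between genotypes, p = 0.8, adjusted 0.889). Without this library the difference between genotypes in the ratio went from −0.529 to 0.198. The use of strand in counting is not given in the sources used here, so reads of mt-Nd6 and of the opposite strand cannot be told apart.

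The tRNA genes had few counts, from 2 for mt-Tf and mt-Tv to 6080 for mt-Te in any library. They are 59 to 75 bases long, and reads of tRNAs and of their unprocessed precursors cannot be told apart in these counts. Of 22, 18 passed the filter and 0 were called higher or lower by edgeR or DESeq2, also at an unadjusted p under 0.05. mt-Tf, mt-Tv, mt-Ti and mt-Td did not pass, with at most 15 counts in any library.

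The tRNA genes named next were chosen after their values were seen. mt-Ts1 was the only tested mitochondrial gene with all Xap5l KO libraries above all WT libraries, in CPM, from counts of 8, 10 and 14 (WT) and 14, 19 and 56 (Xap5l KO). Over all genes tested 19.2% were separated in this direction, and 19.2% in the other direction, where mt-Rnr1 was the only tested mitochondrial gene. At 0.261 ± 0.0359 and 0.568 ± 0.342 CPM (SD, n = 3), mt-Ts1 did not pass the test (adjusted p = 0.16, edgeR quasi-likelihood with Benjamini-Hochberg adjustment). The log2 fold change of mt-Ts1 was 0.57 without Xap5l KO replicate 3 and 1.05 to 1.39 with any other library left out.

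mt-Tg and mt-Tr flank mt-Nd3, and both split the Xap5l KO libraries. mt-Tg counts were 97, 100 and 97 (WT) and 8, 10 and 176 (Xap5l KO). mt-Tr counts were 37, 30 and 42 (WT) and 12, 10 and 134 (Xap5l KO). Xap5l KO replicates 1 and 2 were below WT and replicate 3 above it for both genes. Without Xap5l KO replicate 3 both were called lower, with log2 fold changes of −3.52 and −1.75 (adjusted p = 0.00125 and 0.039, edgeR quasi-likelihood with Benjamini-Hochberg adjustment). With all libraries neither was called, at −1.08 and 0.07 (adjusted p = 0.383 and 0.957, same edgeR test with Benjamini-Hochberg adjustment). The gene sequences (GRCm38, plus strand) are given because both genes carry this split.
mt-Tg, chrM:9391-9458: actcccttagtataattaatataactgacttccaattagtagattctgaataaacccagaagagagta
mt-Tr, chrM:9808-9875: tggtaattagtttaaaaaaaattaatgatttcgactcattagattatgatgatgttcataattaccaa

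Xap5l KO replicate 3 stood apart in composition. Relative to mitochondrial mRNA, 19 of the 22 tRNA genes were above the WT mean in this library, against 4 in replicate 1 and 12 in replicate 2. Its median tRNA gene was at 0.94 on the log2 scale, against −0.30 and 0.02. In the same library mt-Nd3 was at 1.17, mt-Co1 and mt-Co3 at 0.44, mt-Atp8 at −1.02 and mt-Nd6 at −2.07. Without this library the difference between genotypes in the ratio of tRNA to protein-coding counts turned from positive to negative.

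mt-Rnr1 and mt-Rnr2 are 955 and 1582 bases long, with 35.8% and 35.4% G and C, and their longest runs of A have 5 and 7 bases. Of the 13 protein-coding genes, 3 (mt-Co3, mt-Nd4 and mt-Cytb) end on an incomplete codon, a lone T that is completed to a stop codon by the poly(A) tail of the mRNA. Their last 30 bases (GRCm38 chrM, plus strand) are shown with this T in capitals, since these ends depend on the tail.
mt-Co3: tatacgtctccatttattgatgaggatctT
mt-Nd4: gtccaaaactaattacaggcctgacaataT
mt-Cytb: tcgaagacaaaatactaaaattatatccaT

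Nuclear genes that act on mitochondrial RNA were described by lists, beside a median log2 fold change of −0.08 over all genes tested. Of all genes tested 7.59% were called higher and 1.27% lower, so 0 calls in a short list says little about its members. Of 17 genes of mtDNA transcription and replication 0 were called in either direction (median −0.17), and the most abundant, Tfam, which packages mtDNA, was counted 1083, 1417 and 1354 times in WT and 1050, 1325 and 3522 times in Xap5l KO sperm, with overlap. Of 19 genes of mitochondrial RNA processing and decay tested 0 were called (median −0.34). Grsf1, which binds mitochondrial RNA and was the most abundant of these, was counted 1437, 2312 and 2614 times in WT and 1238, 1941 and 2072 times in Xap5l KO. After scaling its libraries did not overlap, at 51.7 ± 7.02 and 35.3 ± 0.257 CPM (SD, n = 3), without passing (log2 fold change −0.55, SE 0.194, adjusted p = 0.085, edgeR quasi-likelihood with Benjamini-Hochberg adjustment).

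Of 18 genes that modify mitochondrial rRNA or assemble the ribosome 0 were called (median −0.40). Nsun4, which methylates mt-Rnr1 and takes part in joining the subunits, was their most abundant member, at 40870, 31501 and 42877 counts (WT) and 84835, 84724 and 60294 (Xap5l KO). Scaled by TMM the groups overlapped (log2 fold change 0.78, SE 0.374, adjusted p = 0.175, edgeR quasi-likelihood with Benjamini-Hochberg adjustment). The summed level of the list, most of it Nsun4, was 1082, 906 and 1129 CPM (without TMM) in WT and 2015, 1801 and 1246 in Xap5l KO sperm. The sums were higher in each Xap5l KO library only without TMM, and after TMM scaling they overlapped (1319, 837 and 1017 against 2495, 1605 and 1118 CPM). Of the 18 members 13 had a negative log2 fold change. Of 81 mitochondrial ribosomal protein genes 1 was called higher and 0 lower (median −0.34), against 7.59% and 1.27% of all genes. Most leaned the other way from the called gene, with 64 of 81 negative against 54.3% of all genes. Without the threshold on fold change 5 were lower (Mrpl45, Mrps21, Mrpl50, Mrpl49 and Mrps35, log2 fold changes −0.79 to −0.69), which is 6.17% against 3.07% of all genes. By DESeq2 there were 4, or 4.94%, against 4.96% of all genes. The count was 6 (7.41%) without WT replicate 1 and 6 without Xap5l KO replicate 3, where all genes gave 5.71% and 4.62%, and it was 0 with the replicate block, by library size alone and in the other fits with a library left out. The gene called was Mrpl47, of the large subunit, at 703, 760 and 706 counts (WT) and 1184, 1542 and 3549 (Xap5l KO), without overlap (log2 fold change 1.17, SE 0.301, adjusted p = 0.0375, edgeR quasi-likelihood with Benjamini-Hochberg adjustment), and its call was lost when any of the 6 libraries was left out, with log2 fold changes of 0.84 to 1.38. The most abundant in WT, Mrpl30, was counted 1433, 2191 and 2363 times in WT and 1198, 1860 and 2135 times in Xap5l KO and was not called (log2 fold change −0.49, SE 0.188). In Xap5l KO the highest mean was that of Dap3, at 46.9 CPM against 34.8 for Mrpl30 (log2 fold change of Dap3 0.41, not called).

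The nuclear subunits of oxidative phosphorylation, of which 79 of 83 were tested, gave 0 calls (median −0.35), where 7.59% of all genes were called higher and 1.27% lower. Of the 79, 67 had a negative log2 fold change. Without the threshold on fold change 5 were lower (Atp5f1, Ndufb11, Ndufc2, Cox7b and Cox6b1, log2 fold changes −0.80 to −0.64), or 6.33% against 3.07% of all genes. DESeq2 gave 10 (12.7%), where all genes gave 4.96%. There were also 10 without WT replicate 1 and 10 without Xap5l KO replicate 3, where all genes gave 5.71% and 4.62%, and 0 in the other fits with a library left out, with the replicate block and by library size alone. Summed after TMM scaling, the list stood at 3595, 3656 and 3750 CPM in WT and 2817, 2859 and 2980 in Xap5l KO, without overlap, while the sums without TMM overlapped. The same held for the sums of the ribosomal protein list and of the RNA processing and decay list. The rule for this list also took in pseudogenes of ATP synthase subunits. Cox4i1, of complex IV, was its most abundant member in WT, at 7044, 10011 and 10771 counts (WT) and 4876, 8506 and 8736 (Xap5l KO). Cox4i1 was lower in each Xap5l KO library once scaled (log2 fold change −0.63, SE 0.207, adjusted p = 0.0725, edgeR quasi-likelihood with Benjamini-Hochberg adjustment). In the Xap5l KO libraries Atp5b had more counts, at 5827, 11014 and 10064 (log2 fold change −0.09, not called). Of 12 mitophagy genes tested 0 were called (median −0.23), and Map1lc3a, an autophagosome protein, was counted 12896, 9503 and 11910 times in WT and 13696, 18499 and 22629 times in Xap5l KO, with overlap once scaled. In these 6 lists DESeq2 and the unadjusted p under 0.05 with the fold change gave the same numbers of calls as edgeR. Of the scalings run, the medians were above 0 relative to mitochondrial mRNA (0.44, 0.14, 0.08, 0.06, 0.11 and 0.02 in the order given), a scaling that moved the median of all genes from −0.08 to 0.36.

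The list of sperm midpiece and germ-cell mitochondrial isoforms had 4 of 15 called higher and 0 lower (median 0.67), by edgeR, by DESeq2 and at an unadjusted p under 0.05 with the fold change, where 7.59% of all genes tested were called higher by edgeR. Round spermatid markers were higher in the same libraries (11 of 12 called, median 1.54), and their part in this list was not tested. Gk2, a glycerol kinase of the sperm mitochondrial sheath, was counted 1622, 1727 and 1627 times in WT and 4267, 7669 and 5791 times in Xap5l KO, without overlap (log2 fold change 1.52, SE 0.230, adjusted p = 0.0122, edgeR quasi-likelihood with Benjamini-Hochberg adjustment). Gykl1, a related kinase, was counted 1849, 1811 and 1626 times in WT and 3379, 6179 and 5642 times in Xap5l KO (log2 fold change 1.18). Pdha2, the germ-cell pyruvate dehydrogenase subunit, was counted 523, 531 and 430 times in WT and 974, 1517 and 1593 times in Xap5l KO (1.13). Cox6b2, a germ-cell complex IV subunit, was counted 659, 552 and 926 times in WT and 1513, 2306 and 1320 times in Xap5l KO (1.02), and like the others its libraries did not overlap. Leaving out WT replicate 2 took the calls to 0, as did leaving out WT replicate 3 or Xap5l KO replicate 2, the fits in which 1 gene of all was called higher. The Cox6b2 call was also lost with the replicate block (log2 fold change 0.99, adjusted p = 0.0879, edgeR quasi-likelihood with Benjamini-Hochberg adjustment) and by library size alone (adjusted p = 0.0724, same edgeR test with Benjamini-Hochberg adjustment). There was 1 call without Xap5l KO replicate 1, 4 without WT replicate 1 (Cox6b2 not among them) and 4 without Xap5l KO replicate 3. With any 1 library left out the log2 fold changes stayed at 1.40 to 1.72 for Gk2, 1.03 to 1.37 for Gykl1, 0.94 to 1.32 for Pdha2 and 0.83 to 1.34 for Cox6b2. Smcp, the cysteine-rich protein of the mitochondrial capsule and the most abundant member, was counted 2638622, 1187597 and 1751215 times in WT and 1426353, 935367 and 978906 times in Xap5l KO, overlapped, and was not called (log2 fold change −0.97, SE 0.591, adjusted p = 0.267, same edgeR test with Benjamini-Hochberg adjustment).

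Nuclear RNAs without a poly(A) tail were followed because the libraries were made from poly(A) RNA. Of 11 found among the counted genes, 5 were tested and 0 called by edgeR (median 0.60). Gm26917 was higher at an unadjusted p under 0.05 with the fold change, by DESeq2, and without Xap5l KO replicate 3, making 1 call in each. These settings called 2385, 1922 and 2402 of all genes higher, so 1 of 5 says little about the list. Rn7s2, an RNA of the signal recognition particle and the most abundant, was counted 350, 298 and 767 times in WT and 445, 167 and 433 times in Xap5l KO, with overlap. The part of poly(A) selection in the rRNA values was not tested.

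Of the markers of cell types, round spermatid markers (11 of 12 higher) and some leukocyte markers (3 of 12 lower) differed between the genotypes, and fewer cells of a type and less RNA per cell cannot be told apart in such samples. Sperm markers, 12 of 12 with counts, summed to 119200, 64920 and 79560 CPM (without TMM) in WT and 78060, 61510 and 83950 in Xap5l KO libraries, with overlap. Smcp, also in the midpiece list, was their most abundant gene. Of the 12, 1 (Akap4 of the fibrous sheath) was called higher, against 7.59% of all genes by edgeR. DESeq2 called 2, with Gapdhs, where it called 1922 of all genes higher. The Akap4 call ended when any of WT replicates 2 and 3 and Xap5l KO replicates 1 and 2 was left out. Leaving out WT replicate 1 gave 3 calls, as did leaving out Xap5l KO replicate 3, where 1912 and 2402 of all genes were called higher. Round spermatid markers summed to 735, 608 and 655 in WT and 1229, 1460 and 1290 in Xap5l KO, and 11 of 12 were called higher by edgeR and by DESeq2, against 7.59% of all genes by edgeR. These calls numbered 10 with WT replicate 1 left out, 9 with Xap5l KO replicate 1 and 11 with Xap5l KO replicate 3. They numbered 0 with WT replicate 2 left out, and 0 also with WT replicate 3 or with Xap5l KO replicate 2 left out, where 1 gene of all was called higher. Tssk2, a testis-specific kinase and the most abundant of these, was counted 22047, 16352 and 19799 times in WT and 30185, 37466 and 43270 times in Xap5l KO, and was not itself called.

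Leukocyte markers summed to 922, 1098 and 1241 CPM (without TMM) in WT and 212, 601 and 752 in Xap5l KO libraries, with 3 of 12 (Cd74, S100a9 and Laptm5) called lower by edgeR, against 1.27% of all genes tested, and 3 by DESeq2. These edgeR calls numbered 1 with WT replicate 1 left out, 0 with any of WT replicates 2 and 3 and Xap5l KO replicates 1 and 2 left out, and 6 when Xap5l KO replicate 3 was. Lyz2, lysozyme of macrophages and the most abundant, was counted 18896, 22647 and 27146 times in WT and 2748, 12878 and 19191 times in Xap5l KO, and was not called. Erythroid markers summed to 18730, 4877 and 7737 in WT and 4481, 1845 and 4179 in Xap5l KO, with Hbb-bs the highest by group mean. Of the 6 genes 0 were called by edgeR and 0 by DESeq2. At an unadjusted p under 0.05 with the fold change 4 were lower, where 605 of all 20945 genes were. The erythroid sums were lower in each Xap5l KO library only without TMM, and after TMM scaling the groups overlapped for all 6 genes.

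Epididymal epithelium markers summed to 4872, 8746 and 7663 CPM (without TMM) in WT and 4043, 4736 and 6518 in Xap5l KO libraries, with Crisp1 the most abundant and Lcn6 and Lcn9 at 0 in all libraries. General epithelium markers, led by Cldn3, summed to 1112, 939 and 905 in WT and 466, 662 and 1188 in Xap5l KO. Smooth muscle markers, led by Acta2, averaged 9.38 ± 0.926 and 9.21 ± 1.54 (SD, n = 3). In these 3 lists the sums overlapped, apart from the epididymal sums after TMM scaling (5942, 8082 and 6899 CPM in WT, 5007, 4220 and 5851 in Xap5l KO), and 0 genes were called by edgeR or DESeq2, also at an unadjusted p under 0.05 with the fold change. All 7 tested epididymal and all 8 general epithelium genes had a negative log2 fold change (medians −0.44 and −0.42), against 54.3% of all genes. Of 5 smooth muscle genes 2 did (median 0.14). Rnase9 was called lower without WT replicate 1, and Adam7 without Xap5l KO replicate 3. The part of other cells in the rRNA values was not tested.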

How the data were processed

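The authors purified poly(A) RNA, mapped paired reads to GRCm38/mm10 with HISAT2 (2.1.0, per the submitters' notes, with Trimmomatic 0.36 and FastQC 0.11.2) and deposited raw counts per gene. The paper names StringTie for assembly and FPKM as its measure of expression. Which tool made the deposited raw counts, the use of strand and the treatment of reads with several matches are not given in the sources used here. Groups came from the sample labels. The whole sperm table was filtered with filterByExpr, scaled by TMM and tested with edgeR 4.0.16 (quasi-likelihood, genotype as the only term, Benjamini-Hochberg over 20945 genes); DESeq2 1.42.0 was an alternative. Shares and ratios were compared with exact permutation tests (scipy 1.17.1). Nuclear copies were found with blastn 2.17.0+ on GENCODE transcripts of GRCm38, from which the mitochondrial sequence was rebuilt. The edgeR step was also run on simulated counts, and no value given here rests on that run. Alternatives were other filters, scalings and thresholds, a replicate block and leaving out each library. Members and lists were chosen with earlier results of these data known. Named genes were both rRNAs, called members, the most and least abundant protein-coding gene of each complex per kilobase, and, of each nuclear list, up to 5 called members and the most abundant gene, the most abundant gene and those without counts of each marker list, and Fam50b.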

Additional observations from a re-analysis of the deposited data

How the results depend on the processing

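The lower mt-Rnr1 level kept its direction under every alternative run, and was called under the other filters, RLE factors, library size alone, scaling without mitochondrial genes and the replicate block; DESeq2 called it too. Mitochondrial genes called lower numbered 0 at an adjusted p under 0.01, where 0 genes of the whole table were called higher and 0 lower (the smallest adjusted p of edgeR with Benjamini-Hochberg adjustment was 0.0118), and 0 to 3 without 1 library (3 without Xap5l KO replicate 3: mt-Rnr1, mt-Tg and mt-Tr). Over all genes, 1 to 2402 were called higher and 1 to 443 lower without 1 library. Genes called lower numbered 149 by library size alone, 643 with no fold threshold and 605 at an unadjusted p under 0.05, where 2385 were called higher. Replicate numbers gave no clear sign of pairing between the libraries. Correlations between libraries of the same number were 0.15, −0.02 and −0.08, and not every library correlated best with its own number. With 3 libraries in a group, such correlations cannot settle whether the libraries were paired. With the replicate block 147 genes were called lower, 1147 higher, 1 mitochondrial gene lower and 0 mitochondrial ribosomal protein genes higher. Without 1 library, the share difference ran from −6.60 to 1.87 percentage points for all mitochondrial genes, −5.74 to 2.66 for protein-coding genes and −0.00275 to 0.00219 for tRNAs. The difference in the tRNA to protein-coding ratio ran from −0.0107 to 0.289 counts (scaled as its main value of 0.179) and that in the mt-Nd6 ratio from −1.05 to 0.198 per 100. The rRNA share, the rRNA to mRNA ratio and the mt-Rnr1 to mt-Rnr2 ratio kept their direction. List calls without 1 library ranged from 0 to 1 for processing and decay (lower), rRNA modification (higher), ribosomal proteins (higher), oxidative phosphorylation (lower), mitophagy (lower) and RNAs without a poly(A) tail (higher, also 1 by DESeq2), and from 0 to 4 for midpiece isoforms (higher). Adding the copies, fitting relative to mitochondrial mRNA with them and refitting the named nuclear genes, marker lists and copies were chosen after seeing the data, as were list counts with no fold threshold, which gave 5 ribosomal protein genes and 5 oxidative phosphorylation genes lower, 1 of 12 mitophagy genes lower (against 3.07% of all genes), 1 of 18 rRNA modification genes higher (5.56% against 9.02% of all genes) and 5 of 15 midpiece genes higher (33.3%). The cause of these shifts was not tested. Relative to mitochondrial mRNA, log2 fold changes of the opposite sign were 0.07 for mt-Tl1, 0.15 for mt-Tw, 0.03 for mt-Co1, 0.04 for mt-Co2, −0.13 for mt-Atp8, 0.11 for mt-Co3 and 0.30 for mt-Nd3. Others were −0.07 for mt-Nd4l, 0.58 for mt-Th and 0.08 for mt-Tt. With the copies added as well, log2 fold changes of the opposite sign were 0.06 for mt-Tl1, 0.13 for mt-Tw, 0.04 for mt-Co1, 0.02 for mt-Co2, −0.14 for mt-Atp8, −0.03 for mt-Atp6 and 0.09 for mt-Co3. Others were 0.28 for mt-Nd3, −0.08 for mt-Nd4l, 0.56 for mt-Th and 0.07 for mt-Tt. By library size alone, log2 fold changes of the opposite sign were −0.09 for mt-Atp8, −0.05 for mt-Nd4l, 0.02 for mt-Th, −0.03 for mt-Nd5 and −0.04 for mt-Te. With the replicate block, log2 fold changes of the opposite sign were −0.46 for mt-Atp8, −0.24 for mt-Atp6, −0.65 for mt-Tr, −0.36 for mt-Nd4l, 0.02 for mt-Th, −0.25 for mt-Nd5 and −0.13 for mt-Te. Others were −0.21 for mt-Cytb. Without the filter, log2 fold changes of the opposite sign were 0.04 for mt-Nd1 and 0.05 for mt-Th. With RLE size factors, log2 fold changes of the opposite sign were 0.04 for mt-Nd1 and 0.04 for mt-Th. By DESeq2, log2 fold changes of the opposite sign were 0.01 for mt-Nd1 and 0.02 for mt-Th. Leaving out each library in turn gave log2 fold changes of both signs, from −0.52 to 0.27 for mt-Tl1, −0.69 to 0.44 for mt-Nd1, −1.35 to 0.05 for mt-Tm, −0.92 to 0.38 for mt-Nd2, −0.41 to 0.20 for mt-Tw and −0.19 to 0.36 for mt-Ta. It ran from −0.10 to 0.36 for mt-Tn, −0.02 to 0.38 for mt-Ty, −0.54 to 0.03 for mt-Co1, −0.60 to 0.32 for mt-Co2, −0.06 to 0.29 for mt-Tk and −0.94 to 0.58 for mt-Atp8. The range was −1.57 to 1.32 for mt-Atp6, −0.44 to 0.16 for mt-Co3, −1.75 to 0.56 for mt-Tr, −0.89 to 0.60 for mt-Nd4l, −0.80 to 0.36 for mt-Nd4 and −0.27 to 0.34 for mt-Th. It ran from −0.28 to 0.34 for mt-Ts2, −0.22 to 0.53 for mt-Tl2, −0.68 to 0.57 for mt-Nd5, −1.18 to 0.52 for mt-Nd6, −0.64 to 0.40 for mt-Te and −0.65 to 0.60 for mt-Cytb. The range was −0.46 to 0.17 for mt-Tt, −0.12 to 0.50 for mt-Tp and −0.17 to 0.50 for Tfam.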
